A study of Mus musculus with 12 samples.

Results

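The lysosomal genes described here are 43 protein-coding genes among the 12584 genes measured by RNA sequencing in CT26 cells, a mouse colon carcinoma line. They were chosen by name: 26 genes of lysosomal hydrolases, their cofactors and lysosomal membrane proteins, and 17 genes of the V-ATPase, picked up by symbols that begin with Atp6v or Atp6ap. No expression value entered that rule. The cells were treated for 24 h with NP-D@MP, NP-D@M, NP@M or PBS, with 3 libraries in each of the 4 groups (N10 to N12, N7 to N9, N4 to N6 and N1 to N3). The labels do not spell out the abbreviations; the series title describes a nanodrug in an engineered cancer cell membrane that is aimed at CDKs and combined with an antibody to PD-L1. The NP-D@MP and NP-D@M libraries are called libraries with D below, and the NP@M and PBS libraries those without D. No label says that the libraries within a group stem from separate cultures, so the p-values reflect the spread among these samples alone, and that spread may be technical.

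Lysosomes degrade proteins, glycans and lipids with hydrolases that work at acid pH. The V-ATPase supplies the acid: its V1 sector, on the cytosolic face, hydrolyses ATP, and its V0 sector, in the membrane, carries protons inward. Heavily glycosylated membrane proteins such as LAMP1 and LAMP2 line the limiting membrane, and many lysosomal genes carry a promoter element, the CLEAR element, that is bound by the transcription factor TFEB and its relatives.

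Among the 35 members with an entry in the RefSeq promoter table (250 bases before to 50 after the start, build GRCm38.p6), 7 held the CLEAR core TCACGTGA: Ctsd, Ctsa, Mcoln1, Cln3, Atp6v1a, Atp6v0d1 and Atp6v0e. That is 20.0% of them, against 2.46% of the 7284 tested genes with an entry and 0.974% of all 32851 promoters of this length. The shorter E-box CACGTG, which lies inside the core, was in 12 of the 35 members (34.3%), against 12.3% of tested genes and 7.15% of all promoters. Both motifs read the same on either strand, and a match is a description of the letters, not evidence of binding. Windows that lie wholly upstream of the start are shown for 4 holders of the core, because their transcripts behaved differently in the comparisons that follow, and for Lamp1 and Atp6v0b, which hold several E-boxes. Capitals mark the core in the first 4 sequences and the E-box in the last 2, and all are written 5′ to 3′ on the strand of the gene.

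Ctsd: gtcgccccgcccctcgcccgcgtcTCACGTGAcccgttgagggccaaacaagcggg
Mcoln1: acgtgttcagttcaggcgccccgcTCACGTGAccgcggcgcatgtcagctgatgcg
Atp6v1a: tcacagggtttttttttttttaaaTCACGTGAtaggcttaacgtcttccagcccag
Cln3: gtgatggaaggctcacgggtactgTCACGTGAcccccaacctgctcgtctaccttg
Lamp1: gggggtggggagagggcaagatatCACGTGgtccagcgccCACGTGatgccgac
Atp6v0b: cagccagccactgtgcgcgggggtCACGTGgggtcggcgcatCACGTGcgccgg

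These windows are chr7:142387895-142387950 on the minus strand for Ctsd, chr8:3500449-3500504 on the plus strand for Mcoln1, chr16:44139360-44139415 on the minus strand for Atp6v1a and chr7:126583327-126583382 on the minus strand for Cln3. Those of Lamp1 and Atp6v0b are chr8:13159076-13159129 on the plus strand and chr4:117887336-117887389 on the minus strand. The core begins at position -99 from the RefSeq start in Ctsd, -46 in Mcoln1, -132 in Atp6v1a and -122 in Cln3.

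Values are the authors' FPKM, that is, fragments per kilobase of gene length per mega-read. The reads in the table were alike in number, at 13.9 ± 0.435 M reads (mega-reads) with NP-D@MP, 14.2 ± 1.21 M with NP-D@M, 15.3 ± 0.201 M with NP@M and 15.1 ± 1.01 M with PBS (mean ± SD, n = 3 each). The library size that the authors divided by was 0.533 to 0.565 times those reads with D and 1.95 to 2.02 times without D, so a share of reads is worth several times more FPKM with D. Changes between libraries with and without D are therefore given in the authors' FPKM and, in many places, also rescaled to the sum of the table's reads (written as scaled to the reads). A ratio or log2 change given without a scaling is in FPKM alone and rests on the authors' library size. Shares of reads and ratios of genes within a library need neither. Mitochondrial genes took 7.41 to 14.4% of the reads with D and 3.30 to 4.20% without D, and ribosomal protein genes 11.2 to 12.9% with D and 5.28 to 5.94% without D; their part in the results below was not tested. Of 7 epithelial marker genes 2 had a row (Krt18 and Krt20), with a summed level of 73.0 to 91.1 FPKM with D and 15.1 to 18.7 FPKM without D. Krt20 carried that difference, at 80.4 ± 6.83 FPKM with NP-D@MP and 78.0 ± 5.81 FPKM with NP-D@M, against 8.67 ± 0.753 FPKM with NP@M and 9.27 ± 0.317 FPKM with PBS, while Krt18 had lower means with D, at 4.19 ± 1.14 FPKM and 4.46 ± 2.37 FPKM in these groups with D, against 6.89 ± 0.653 FPKM with NP@M and 8.16 ± 2.22 FPKM with PBS. The 6 fibroblast markers summed to 11.1 to 15.4 FPKM with D and 70.6 to 86.6 FPKM without D. Col1a2 made up most of these sums, at means of 11.3 FPKM with NP-D@MP and 9.25 FPKM with NP-D@M, against 54.3 FPKM with NP@M and 58.6 FPKM with PBS. Col1a1, Col3a1, Pdgfra and Pdgfrb also had lower means with D. Dcn had higher ones, at 0.264 and 0.355 FPKM in these groups with D, against 0.0544 FPKM with NP@M and 0.0364 FPKM with PBS. Pdgfra and Dcn were too low to be tested. Of 10 myeloid markers 4 had a row (Ptprc, Cd14, Lyz2 and Fcer1g, with Ptprc at a mean of 0 FPKM in NP@M and PBS), with sums of 6.20 to 8.58 FPKM in NP-D@MP, 6.40 to 9.99 FPKM in NP-D@M, 7.25 to 8.41 FPKM in NP@M and 6.94 to 8.64 FPKM in PBS.

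The lysosomal genes took a larger share of the reads in every library with D than in any without D. Their share was 2.40 ± 0.0424% with NP-D@MP and 2.34 ± 0.106% with NP-D@M, against 1.05 ± 0.00746% with NP@M and 1.05 ± 0.0112% with PBS. The lowest library with D held 2.28% and the highest without D 1.06%. The proteases made up most of that difference: they took 1.30 ± 0.0399% of the reads with NP-D@MP and 1.24 ± 0.0936% with NP-D@M, against 0.380 ± 0.0156% with NP@M and 0.402 ± 0.00525% with PBS. A large part came from the protease gene Ctsl alone, with 96180 to 137864 reads with D and 31985 to 37903 without D. All members together had 293406 to 367908 reads with D and 145549 to 166766 without D. The genes of the V1 sector, by contrast, took 0.0973 ± 0.00210% with NP-D@MP and 0.0930 ± 0.00523% with NP-D@M, against 0.107 ± 0.00409% with NP@M and 0.103 ± 0.00397% with PBS. In such bulk libraries, fewer cells of a kind and less RNA per cell cannot be told apart.

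**Figure D1:**
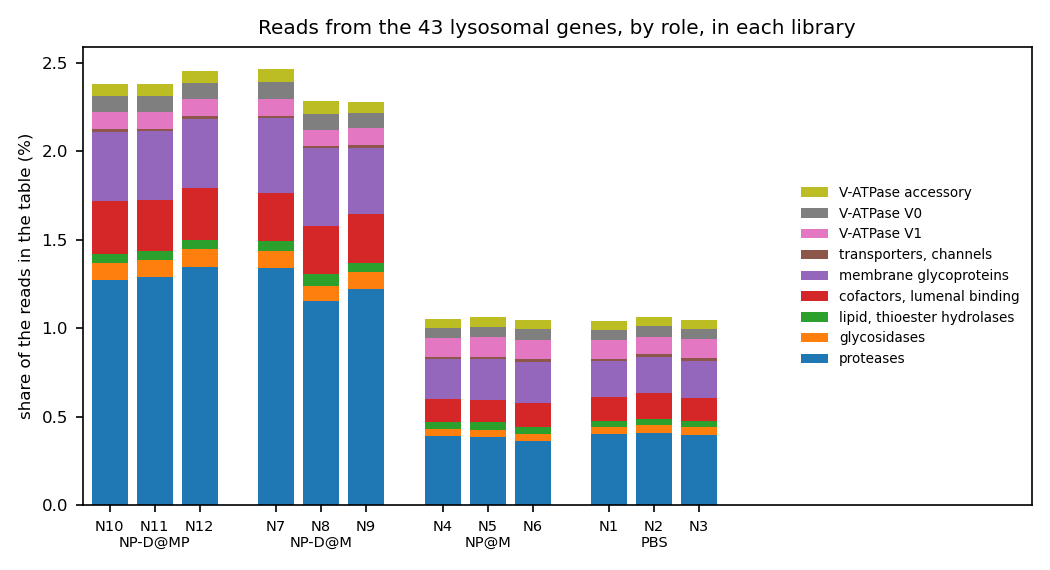
Share of the reads in the table (y axis, percent) that came from the 43 lysosomal genes, stacked by role, in each of the 12 libraries (x axis, grouped by treatment). The 6 bars with D stand between 2.28 and 2.47% and the 6 without D between 1.04 and 1.06%, and the protease segment at the base differs most.

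The composition of the lysosomal transcripts also differed. Proteases held 41.5 ± 0.434% of the members' summed FPKM with NP-D@MP and 40.3 ± 1.73% with NP-D@M, against 28.0 ± 1.03% with NP@M and 29.6 ± 0.326% with PBS. The V-ATPase genes together held 17.7 ± 0.244% and 17.4 ± 0.511% in these groups with D, against 26.6 ± 0.407% with NP@M and 27.0 ± 0.519% with PBS. By mean FPKM the leading members were Ctsl, Lamp1 and Psap in each group with D and in PBS, and the same genes led in NP@M with Lamp1 ahead of Ctsl. Lowest in all 4 groups was Atp6v1g2, a minor isoform of the G subunit, which reached 1 FPKM only in N8, N9 and N11 and so passed the filter on low values through libraries with D alone.

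NP-D@M and NP@M differ by the D in their labels, and most lysosomal genes differed between them. In the authors' FPKM, 36 of the 43 members rose, where 41.8% of the 10101 tested genes did, and 3 fell, where 47.7% did (limma, Benjamini-Hochberg adjusted p under 0.05). The median log2 change was 2.26 over the members and -0.19 over all tested genes. In FPKM the groups did not overlap for 40 of the 43 members, where they did not for 87.3% of all tested genes. Higher without overlap were 37 members, where 40.7% of all tested genes were. With values scaled to the table's reads, 24 members rose against a background of 17.5% and 16 fell against 70.5%, with medians of 0.59 over the members and -1.46 over all tested genes. A common median ratio gave 36 higher and 3 lower (backgrounds of 41% and 48.3%), quantile normalization 31 and 6 (37.7% and 41.8%), and limma voom on the recovered reads 24 and 16 (17.1% and 70.5%). The median-ratio factors ran only from 0.982 (N3) to 1.05 (N11), so that rescaling hardly altered the authors' FPKM. The limma voom fit took the same read totals as the scaling to the reads. Neither is a separate check of the library size. The log2 change of 15 members had opposite signs in FPKM and scaled to the reads, and quantile normalization turned 7 that were positive in FPKM negative: Grn, Lamp1, Lamp2, Atp6v0d1, Atp6v1a, Atp6v1g1 and Atp6ap2. In the authors' FPKM and scaled to the reads alike, 40 of the 43 members lay above the median of all genes; the 3 below it were the V1 subunit genes Atp6v1b2, Atp6v1d and Atp6v1h. Called the same way by limma in FPKM and under the 3 rescalings (reads, median ratio, quantile) were 21 members that rose (15.8% of all tested genes did so) and 2 that fell, Atp6v1b2 and Atp6v1d (35.8% of all tested genes did so).

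**Figure D2:**
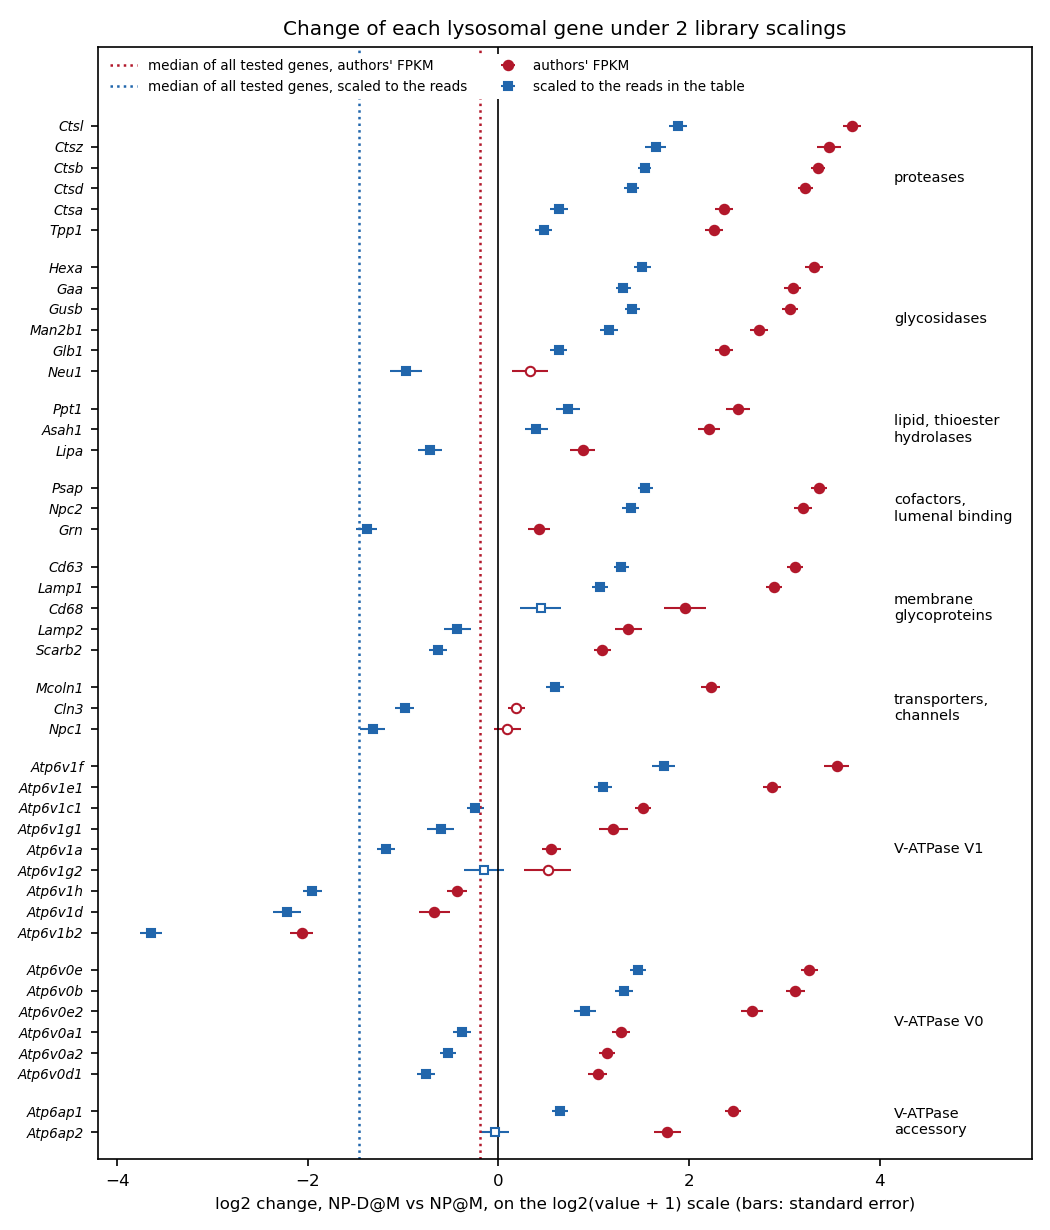
Log2 change of each of the 43 lysosomal genes in NP-D@M vs NP@M (x axis) by role (y axis), in the authors' FPKM (red circles) and scaled to the table's reads (blue squares), with standard errors; filled symbols passed an adjusted p under 0.05. Dotted lines mark the median of all tested genes, -0.19 and -1.46, and 40 of the 43 genes lie to the right of the line of their own colour.

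For NP-D@M vs NP@M, all 6 lysosomal proteases rose under each of the 4 scalings, where 15.8% of all tested genes did. Ctsl, which encodes the cysteine endopeptidase cathepsin L (chr13:64359337-64370890, minus strand, GRCm38), had 2422, 2499 and 2670 FPKM in NP-D@MP, 2531, 2043 and 2281 FPKM in NP-D@M, 178, 183 and 159 FPKM in NP@M, and 190.2, 189 and 187 FPKM in PBS. No library with D came near one without D. The ratio of means was 13.2 for NP-D@M vs NP@M (log2 change 3.71, SE 0.0985, limma adjusted p = 5.85e-11) and 3.70 scaled to the reads. Ctsd, the aspartic protease cathepsin D, had 820.0, 779 and 763 FPKM in NP-D@MP, 715, 686 and 723 FPKM in NP-D@M, 77.0, 72.2 and 75.7 FPKM in NP@M, and 76.8, 81.5 and 71.5 FPKM in PBS. Its values in the 2 groups with D were likewise far above the rest, by a ratio of 9.44 for NP-D@M vs NP@M and of 2.65 scaled to the reads. Of the 50-base words of Ctsd, 32.4% also occur in the overlapping gene model Gm49369, so reads of the 2 may have been split by the counting. Exons of other gene models cover 34.4% of Ctsd, 26.8% of Ctsl, 17.4% of Ctsa, 12.8% each of Ctsb and Hexa and 11.8% of Atp6v0b, and with the strand setting of the counting not given, those values carry that uncertainty. The cysteine cathepsins Ctsb and Ctsz stood at ratios of 10.4 and 11.3, while the carboxypeptidase gene Ctsa and the tripeptidyl peptidase gene Tpp1 stood at 5.66 and 5.005.

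Of the 6 glycosidases 5 rose under all 4 scalings for NP-D@M vs NP@M, where 15.8% of all tested genes did. Hexa, the alpha subunit of beta-hexosaminidase, had 299.6, 295 and 296 FPKM in NP-D@MP, 267, 233 and 278 FPKM in NP-D@M, 25.7, 23.1 and 26.8 FPKM in NP@M, and 29.9, 29.6 and 27.8 FPKM in PBS. The ratio was 10.3 for NP-D@M vs NP@M (log2 change 3.31, SE 0.0929) and 2.88 scaled to the reads. Gaa, acid alpha-glucosidase, which degrades glycogen in the lysosome, had 151, 152 and 153 FPKM in NP-D@MP, 133, 121 and 137 FPKM in NP-D@M, 15.0, 14.3 and 13.9 FPKM in NP@M, and 16.9, 18.2 and 15.4 FPKM in PBS. Both genes were thus clear of overlap between libraries with and without D. The beta-glucuronidase gene Gusb, the alpha-mannosidase gene Man2b1 and the beta-galactosidase gene Glb1 had ratios of 10.2, 8.88 and 5.65. Neu1, the lysosomal sialidase, was the exception: it had 3.33, 3.67 and 3.53 FPKM in NP-D@MP, 2.42, 2.03 and 4.47 FPKM in NP-D@M, 1.68, 1.99 and 2.55 FPKM in NP@M, and 2.38, 2.58 and 2.21 FPKM in PBS. NP-D@M and NP@M overlapped, the log2 change of 0.33 (SE 0.187) did not pass (limma adjusted p = 0.111), and scaled to the reads the change was -0.97 and passed (limma adjusted p = 0.000143). Under quantile normalization the change of Neu1 was 0.86 and passed as well (limma adjusted p = 0.000353), so its direction rests on the scaling.

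The lipid and thioester hydrolases split. Ppt1, which removes palmitate from proteins, had 80.6, 94.8 and 95.5 FPKM in NP-D@MP, 102, 108 and 77.6 FPKM in NP-D@M, 15.2, 16.7 and 15.7 FPKM in NP@M, and 13.4, 14.5 and 13.1 FPKM in PBS, and rose under all 4 scalings. Asah1, acid ceramidase, had 166, 181 and 174 FPKM in NP-D@MP, 193, 217 and 164 FPKM in NP-D@M, 36.3, 44.8 and 40.5 FPKM in NP@M, and 33.9, 31.8 and 35.8 FPKM in PBS. Neither gene's libraries with D overlapped with those without D, though for Asah1 the change did not pass under quantile normalization (limma adjusted p = 0.404). Lipa, lysosomal acid lipase, which hydrolyses cholesteryl esters and triglycerides, had 10.9, 9.64 and 9.82 FPKM in NP-D@MP, 8.22, 12.4 and 9.31 FPKM in NP-D@M, 4.44, 5.46 and 4.77 FPKM in NP@M, and 4.33, 4.47 and 4.77 FPKM in PBS. It rose in FPKM (log2 change 0.88, SE 0.131) and fell scaled to the reads (-0.72, SE 0.127), so its direction rests on the library size.

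Among the cofactors and lumenal binding proteins, Psap and Npc2 rose and Grn depended on the scaling. Psap, the precursor of the saposins that present lipids to hydrolases (chr10:60277627-60302597, plus strand), had 1408, 1346 and 1385 FPKM in NP-D@MP, 1163, 1235 and 1274 FPKM in NP-D@M, 115, 116 and 123 FPKM in NP@M, and 127, 133 and 116 FPKM in PBS. Npc2, which binds cholesterol in the lumen, had 259.8, 254 and 267 FPKM in NP-D@MP, 248, 213 and 242 FPKM in NP-D@M, 25.8, 23.2 and 25.2 FPKM in NP@M, and 27.2, 30.3 and 25.9 FPKM in PBS. Their ratios for NP-D@M vs NP@M were 10.4 and 9.48. Grn, progranulin, a secreted protein that is cut into granulins in the lysosome, had 96.8, 78.6 and 83.5 FPKM in NP-D@MP, 69.6, 89.8 and 74.6 FPKM in NP-D@M, 60.2, 56.9 and 55.7 FPKM in NP@M, and 54.8, 60.0 and 54.4 FPKM in PBS. In FPKM every library with D was above every one without, with a log2 change of 0.42 (SE 0.114), whereas scaled to the reads the change was -1.38 (SE 0.112).

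For NP-D@M vs NP@M, 5 of 5 membrane glycoproteins rose in FPKM (41.8% of all tested genes did), and scaled to the reads 2 rose and 2 fell (17.5% and 70.5% of all tested genes). For NP-D@MP vs PBS, 5 rose in FPKM (background 43.2%), and scaled to the reads 3 rose and 1 fell (17.5% and 70.7%). Lamp1, the most abundant of them (chr8:13159161-13175338, plus strand), had 1365, 1431 and 1480 FPKM in NP-D@MP, 1471, 1498 and 1280 FPKM in NP-D@M, 183, 190 and 194 FPKM in NP@M, and 173, 177 and 172 FPKM in PBS. Cd63, a tetraspanin of late endosomes and lysosomes, had 795, 729 and 705 FPKM in NP-D@MP, 749, 767 and 731 FPKM in NP-D@M, 86.0, 83.2 and 87.1 FPKM in NP@M, and 77.7, 87.9 and 77.2 FPKM in PBS. Both rose under either scaling, Cd63 by a ratio of 8.76 and Lamp1 by 7.49 for NP-D@M vs NP@M, though Lamp1 had a change of -0.093 under quantile normalization, which did not pass. Lamp2, which encodes the other major lysosome-associated membrane protein, had 60.9, 68.2 and 65.8 FPKM in NP-D@MP, 74.5, 85.6 and 58.4 FPKM in NP-D@M, 24.5, 31.0 and 26.9 FPKM in NP@M, and 21.1, 18.9 and 22.3 FPKM in PBS. Scarb2, which encodes LIMP-2, the receptor that brings glucocerebrosidase to lysosomes, had 23.0, 23.7 and 21.1 FPKM in NP-D@MP, 25.5, 23.1 and 21.6 FPKM in NP-D@M, 10.9, 10.7 and 9.68 FPKM in NP@M, and 10.1, 11.3 and 10.4 FPKM in PBS. Lamp2 and Scarb2 were higher with D in FPKM, with log2 changes of 1.36 and 1.09, and lower scaled to the reads, at -0.43 and -0.63. Cd68, a glycoprotein best known in macrophages, averaged 14.9 ± 3.82 FPKM with NP-D@MP and 12.5 ± 4.05 FPKM with NP-D@M, against 2.38 ± 0.368 FPKM with NP@M and 2.11 ± 0.123 FPKM with PBS. Scaled to the reads its log2 change for NP-D@M vs NP@M was 0.44 and did not pass (limma adjusted p = 0.0664). For NP-D@MP vs PBS it was 0.76 and passed (limma adjusted p = 0.00464). Its recovered reads were few, at 83 to 171 with D and 73 to 108 without D. Of the 3 myeloid markers tested for NP-D@M vs NP@M, Lyz2 and Fcer1g were called higher in FPKM and Cd14 lower. Fcer1g reached 1 FPKM only in N7, N9, N11 and N12, and so passed the filter on low values through libraries with D alone. Without D, Lyz2 reached 1 FPKM only in N5. Scaled to the reads its change, 0.051, did not pass (limma adjusted p = 0.813). Lyz2 averaged 2.19 FPKM with NP-D@MP and 2.44 FPKM with NP-D@M, against 0.637 FPKM with NP@M and 0.567 FPKM with PBS. Fcer1g averaged 1.14 FPKM with NP-D@MP and 1.80 FPKM with NP-D@M, against 0 FPKM with NP@M and 0.0406 FPKM with PBS. Cd14 averaged 3.66 FPKM with NP-D@MP and 4.40 FPKM with NP-D@M, against 7.30 FPKM with NP@M and 7.32 FPKM with PBS. The part of these markers in the Cd68 values was not tested.

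Of the 3 membrane transporters and channels 1 rose in FPKM for NP-D@M vs NP@M, where 41.8% of all tested genes did, and 2 for NP-D@MP vs PBS, where 43.2% did. Scaled to the reads, 1 rose and 2 fell in each of these comparisons, with backgrounds of 17.5% higher in both and of 70.5% and 70.7% lower. Mcoln1, which encodes the cation channel TRPML1, had 24.83, 24.99 and 24.98 FPKM in NP-D@MP, 19.6, 23.0 and 25.04 FPKM in NP-D@M, 4.48, 3.85 and 3.74 FPKM in NP@M, and 4.25, 4.03 and 3.95 FPKM in PBS. It rose under all 4 scalings, by a ratio of 5.61 in FPKM for NP-D@M vs NP@M and of 1.57 scaled to the reads. Npc1, the transporter that takes cholesterol out of the lysosome, had 3.20, 4.22 and 4.31 FPKM in NP-D@MP, 3.57, 2.82 and 4.10 FPKM in NP-D@M, 2.55, 3.47 and 3.59 FPKM in NP@M, and 3.17, 3.69 and 3.44 FPKM in PBS. Its groups overlapped, and its log2 change was 0.10 (SE 0.142, limma adjusted p = 0.528) in FPKM and -1.32 (SE 0.133) scaled to the reads. Cln3, a membrane protein mutated in juvenile neuronal ceroid lipofuscinosis, had 2.38, 2.35 and 2.28 FPKM in NP-D@MP, 1.81, 1.98 and 1.94 FPKM in NP-D@M, 1.61, 1.33 and 1.73 FPKM in NP@M, and 1.59, 1.26 and 1.36 FPKM in PBS. It was not called for NP-D@M vs NP@M (log2 change 0.19, limma adjusted p = 0.0639) although these groups did not overlap, and it was lower scaled to the reads (-0.98). Under quantile normalization Cln3 was higher (0.78, limma adjusted p = 8.02e-06), as were all 3 genes of this role, where 37.7% of all tested genes were. Cln3 and Mcoln1 both hold the CLEAR core shown above.

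**Figure D3:**
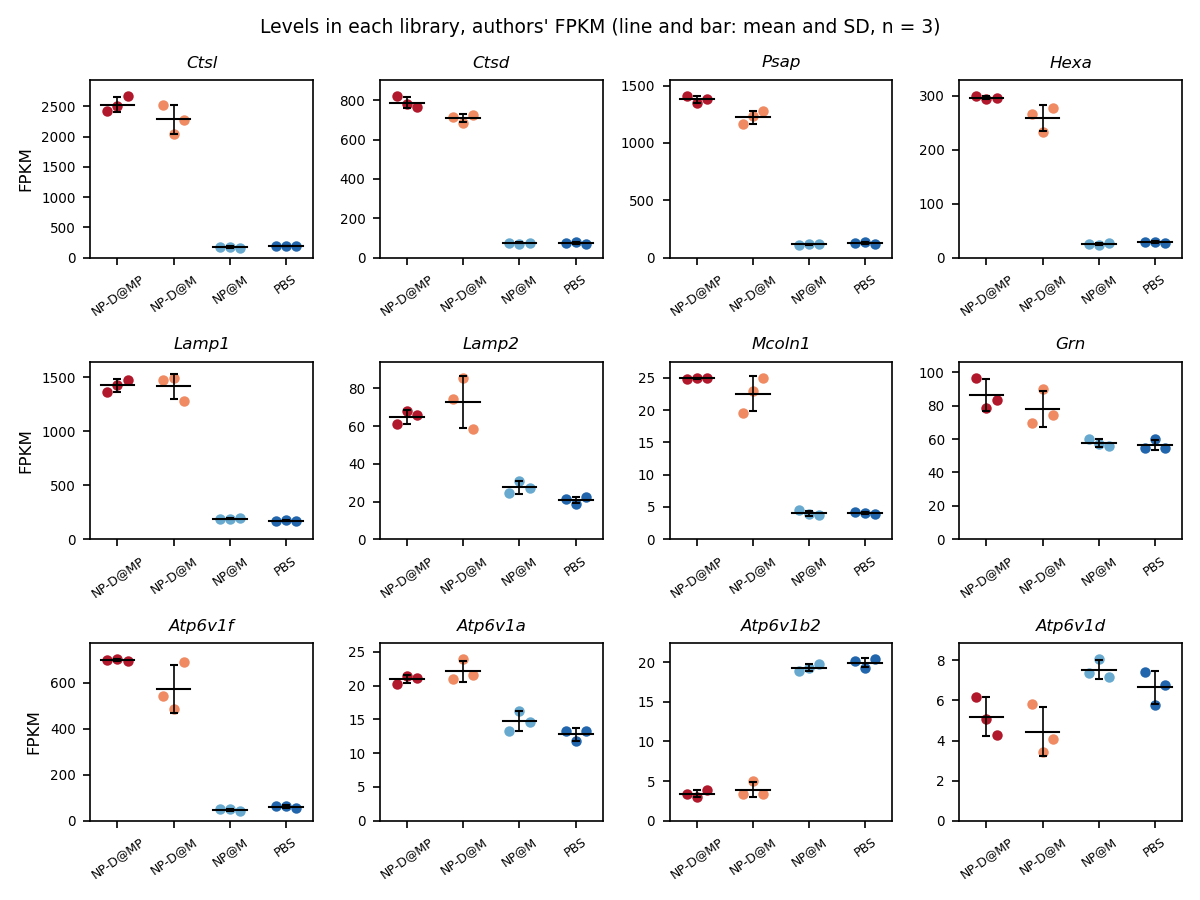
FPKM (y axes, each from 0) of 12 lysosomal genes in each library of the 4 groups (x axes), with the mean (line) and SD (bar, n = 3). Ctsl, Ctsd, Psap, Hexa, Lamp1, Mcoln1 and Atp6v1f stand several times higher with D, Lamp2, Grn and Atp6v1a are raised less, and Atp6v1b2 is at 3.06 to 4.99 FPKM with D and at 18.8 to 20.4 FPKM without.

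The genes of the V1 sector did not move together. Atp6v1f, the F subunit of the rotor stalk (chr6:29467718-29470512, plus strand), had 699.9, 703 and 697 FPKM in NP-D@MP, 543, 485 and 691 FPKM in NP-D@M, 49.4, 50.3 and 42.7 FPKM in NP@M, and 64.9, 64.1 and 54.6 FPKM in PBS. Atp6v1b2, the B subunit, which alternates with the catalytic A subunit in the ring that hydrolyses ATP (chr8:69088646-69113711, plus strand), had 3.403, 3.06 and 3.83 FPKM in NP-D@MP, 3.32, 4.99 and 3.398 FPKM in NP-D@M, 18.8, 19.3 and 19.7 FPKM in NP@M, and 20.1, 19.3 and 20.4 FPKM in PBS. The F subunit transcript was thus higher and the B subunit transcript lower in each of the 6 libraries with D than in any without. Atp6v1f rose by a ratio of 12.1 for NP-D@M vs NP@M (log2 change 3.55, SE 0.131) and of 3.38 scaled to the reads. Atp6v1b2 fell by 2.07 on the log2 scale in FPKM (SE 0.124, limma adjusted p = 1.89e-08) and by 3.64 scaled to the reads (SE 0.114). Its recovered reads were 135, 123 and 145 in NP-D@MP and 148, 192 and 148 in NP-D@M, against 3067, 3033 and 3251 in NP@M and 3278, 3137 and 3045 in PBS. Atp6v1b2 was the only gene of a B subunit among the members.

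The other V1 genes lay between these. Atp6v1g1, a G subunit of the peripheral stalk, had 180.1, 153 and 149.8 FPKM in NP-D@MP, 132, 103 and 149 FPKM in NP-D@M, 58.9, 59.1 and 45.7 FPKM in NP@M, and 64.9, 58.3 and 61.3 FPKM in PBS. Atp6v1c1, the C subunit that joins the sectors, had 42.3, 43.2 and 41.9 FPKM in NP-D@MP, 45.4, 44.3 and 41.2 FPKM in NP-D@M, 13.2, 15.4 and 15.2 FPKM in NP@M, and 12.9, 12.7 and 13.9 FPKM in PBS. Both were higher with D in FPKM, by log2 changes of 1.21 and 1.52, and lower scaled to the reads, at -0.61 and -0.24. For Atp6v1g1, 19.2% of its 50-base words also occur in Gm13453, and for Atp6v1f 11.2% occur in another gene model. Atp6v1d, the D subunit of the rotor, had 6.19, 5.10 and 4.27 FPKM in NP-D@MP, 5.82, 3.42 and 4.10 FPKM in NP-D@M, 7.40, 8.06 and 7.17 FPKM in NP@M, and 7.40, 5.79 and 6.80 FPKM in PBS. It was lower in NP-D@M than in NP@M with no overlap (log2 change -0.67, SE 0.163), whereas NP-D@MP and PBS overlapped and the change of -0.32 did not pass (limma adjusted p = 0.0857). Atp6v1h, the regulatory H subunit, fell by 0.44 on the log2 scale for NP-D@M vs NP@M, at 4.09 ± 0.284 FPKM with NP-D@M and 5.90 ± 0.639 FPKM with NP@M. Atp6v1e1, an E subunit of the peripheral stalk, rose under all 4 scalings, with a ratio of 7.80. The A subunit gene Atp6v1a averaged 21.0 ± 0.636 FPKM with NP-D@MP and 22.1 ± 1.56 FPKM with NP-D@M, against 14.7 ± 1.51 FPKM with NP@M and 12.8 ± 0.904 FPKM with PBS, and was lower scaled to the reads (log2 change -1.18).

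The V0 sector fell into 2 sets by direction when scaled to the reads. Atp6v0b, whose product is a subunit of the proton-carrying ring, had 249.6, 221 and 240.0 FPKM in NP-D@MP, 214, 189.7 and 221 FPKM in NP-D@M, 23.6, 20.9 and 24.9 FPKM in NP@M, and 27.4, 29.9 and 26.5 FPKM in PBS. Atp6v0e, a small membrane subunit, had 198, 215 and 208 FPKM in NP-D@MP, 224, 211 and 198 FPKM in NP-D@M, 20.8, 20.3 and 22.2 FPKM in NP@M, and 20.0, 21.2 and 18.1 FPKM in PBS. These, with the related Atp6v0e2, rose for NP-D@M vs NP@M under all 4 scalings, by log2 changes of 3.12, 3.26 and 2.66 in FPKM. Atp6v0a1 and Atp6v0a2 encode alternative forms of the large a subunit through which protons pass. Atp6v0a1 had 21.2, 16.5 and 17.6 FPKM in NP-D@MP, 16.6, 15.8 and 16.4 FPKM in NP-D@M, 6.42, 5.78 and 6.04 FPKM in NP@M, and 6.44, 7.02 and 6.43 FPKM in PBS. Atp6v0a2 had 16.4, 16.8 and 17.9 FPKM in NP-D@MP, 16.8, 16.8 and 14.7 FPKM in NP-D@M, 6.77, 6.47 and 6.98 FPKM in NP@M, and 7.05, 7.68 and 7.37 FPKM in PBS. Together with Atp6v0d1, these were 2.67, 2.39 and 2.08 times as high in FPKM in NP-D@M as in NP@M but lower scaled to the reads, with log2 changes of -0.38, -0.53 and -0.76. Under quantile normalization Atp6v0a1 and Atp6v0a2 rose, by 1.03 and 0.82, and Atp6v0d1 fell, at -0.74.

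Of the 2 accessory subunits, which serve assembly and trafficking of the pump, Atp6ap1 had 292, 287 and 299 FPKM in NP-D@MP, 292, 306 and 265 FPKM in NP-D@M, 50.4, 52.2 and 51.2 FPKM in NP@M, and 49.8, 55.1 and 52.2 FPKM in PBS. Atp6ap2, also known as the prorenin receptor, had 135, 140.0 and 140.1 FPKM in NP-D@MP, 165, 162 and 125 FPKM in NP-D@M, 36.1, 51.2 and 43.3 FPKM in NP@M, and 37.0, 32.4 and 39.5 FPKM in PBS. Both rose in FPKM, and scaled to the reads Atp6ap1 rose by 0.65 on the log2 scale while Atp6ap2, at -0.038, did not pass (limma adjusted p = 0.812). Under quantile normalization the change of Atp6ap1 for NP-D@M vs NP@M, 0.18, did not pass either (limma adjusted p = 0.116).

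Ratios of 2 genes within a library do not depend on a scaling by 1 factor per library, but quantile normalization can change them. For NP-D@M vs NP@M it took the log2 changes of Lamp1 and Lamp2 from 2.90 and 1.36 in FPKM to -0.093 and -0.28. The ratios below are in FPKM. The pairs below were chosen after their values were seen, and no test was made on them. Atp6v1b2 stood to Atp6v1a, both in FPKM, at 0.168, 0.142 and 0.181 in NP-D@MP, 0.159, 0.209 and 0.158 in NP-D@M, 1.42, 1.18 and 1.34 in NP@M, and 1.52, 1.64 and 1.53 in PBS, so the B subunit transcript was the less abundant of the pair with D and the more abundant without. Lamp1 stood to Lamp2 at 22.0 ± 0.848 with NP-D@MP and 19.7 ± 2.22 with NP-D@M, against 6.93 ± 0.728 with NP@M and 8.41 ± 0.843 with PBS. For the cholesterol-handling pair, Npc2 stood to Npc1 at 67.7 ± 11.6 and 68.1 ± 8.38 in these groups with D, against 7.94 ± 1.89 with NP@M and 8.09 ± 0.524 with PBS. Psap stood to Grn at 16.1 ± 1.36 with NP-D@MP and 15.9 ± 1.83 with NP-D@M, against 2.05 ± 0.151 with NP@M and 2.22 ± 0.0937 with PBS. In each of these pairs the libraries with D did not overlap with those without D. Ctsd stood to Ctsb at 1.12 ± 0.0513 with NP-D@MP and 1.06 ± 0.0272 with NP-D@M, against 1.17 ± 0.0200 with NP@M and 1.18 ± 0.0189 with PBS, and there the libraries with and without D overlapped.

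NP-D@MP vs PBS shares no library with NP-D@M vs NP@M, though both took their spread from 1 fit over all 12 libraries. It gave 37 members higher, against 43.2% of all tested genes, and 1 lower, Atp6v1b2, against 47.3% (limma, adjusted p under 0.05). With values scaled to the table's reads 25 rose and 14 fell, against backgrounds of 17.5% and 70.7%. A common median ratio gave 37 and 3 (42.2% and 48.5%), quantile normalization 31 and 4 (38% and 42.3%), and limma voom 25 and 15 (17.1% and 70.6%). All 36 members higher in NP-D@M vs NP@M were among the 37, which is 97.3% of the longer list; over all tested genes the shared calls were 95.8% of the first list and 92.6% of the second, so the members were near the background here. The added call was Cln3, at 2.34 ± 0.0524 FPKM with NP-D@MP against 1.40 ± 0.173 FPKM with PBS (log2 change 0.48, limma adjusted p = 0.000355), which scaled to the reads was lower (-0.75). Largest again were Ctsl, with a ratio of 13.4, and Atp6v1f, with 11.4, while Atp6v1b2 fell by 2.24 on the log2 scale. Not called were Atp6v1d, Atp6v1h, Atp6v1g2, Neu1 and Npc1. Without NP-D@MP replicate N10, Atp6v1h and Atp6v1d were also called lower, which made 3 of 43, where 46.3% of all tested genes were called lower.

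NP-D@MP vs NP-D@M, which differ by the P in their labels, gave no member called in either direction; 0.0396% of all tested genes were called higher and 0.0099% lower (limma, adjusted p under 0.05), and limma voom on the recovered reads called no member either (0% of all tested genes in each direction). At an unadjusted p under 0.05, 5 of the 43 were higher (11.4% of all tested genes were) and none lower (5.55% were): Gaa, Atp6v1f, Atp6v1g1, Ctsz and Cln3, with the lowest adjusted p at 0.260. Atp6v1g1 had the widest difference, at 161 ± 16.7 FPKM with NP-D@MP against 128 ± 23.6 FPKM with NP-D@M (log2 change 0.34, SE 0.149). Groups did not overlap for 9 of the 43, against 14.2% of all tested genes in either direction. All 9 were higher in NP-D@MP, where 9.57% of all tested genes were higher without overlap and 4.6% lower. Without NP-D@M replicate N9, 3 of the 43 members were called higher, where 9.59% of all tested genes were: Atp6v1f, Ctsz and Neu1, with log2 changes of 0.45, 0.41 and 0.49. With standard errors of 0.0758 to 0.244 on the log2 scale, these libraries do not show that the members were alike in the 2 groups.

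NP@M vs PBS, in which neither group has D in its label, likewise gave no member called, against 0% of all tested genes higher and 0.0099% lower (limma, adjusted p under 0.05), and limma voom called none (0.188% of all tested genes higher and 0.505% lower). At an unadjusted p under 0.05, 2 members were higher (4.38% of all tested genes were), Lamp2 and Atp6v1h, and 3 were lower (6.44% were), Gaa, Atp6v0b and Atp6v1f, with the lowest adjusted p at 0.448. Lamp2 averaged 27.5 ± 3.30 FPKM with NP@M and 20.8 ± 1.72 FPKM with PBS, with a log2 change of 0.39 (SE 0.140). Atp6v1f averaged 47.5 ± 4.16 FPKM with NP@M and 61.2 ± 5.72 FPKM with PBS, with a log2 change of -0.36 (SE 0.131). Groups did not overlap for 15 of the 43 members, against 28.4% of all tested genes. This comparison shares the NP@M libraries with NP-D@M vs NP@M and the PBS libraries with NP-D@MP vs PBS.

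**Figure D4:**
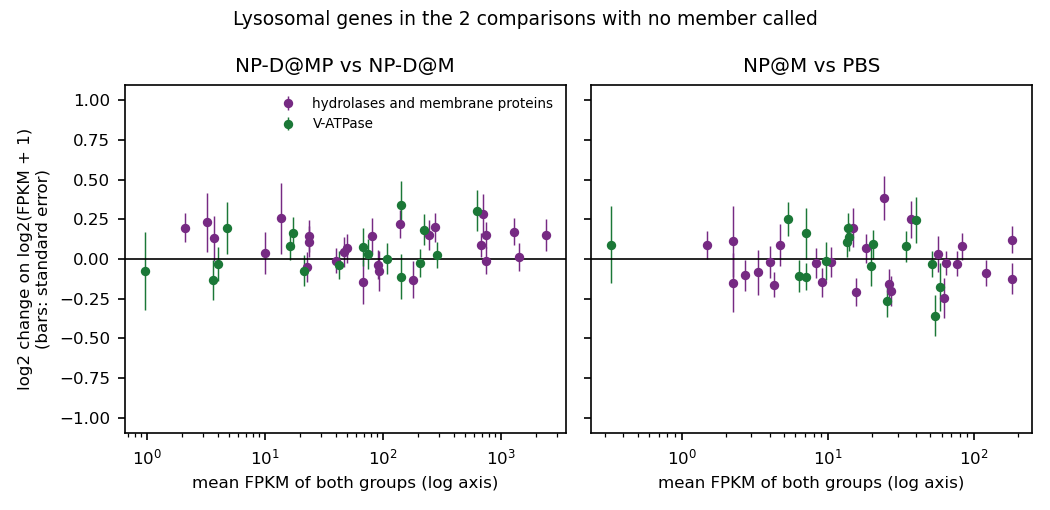
Log2 change on log2(FPKM + 1) with its standard error (y axes) against the mean FPKM of both groups (x axes, log) for the 43 lysosomal genes in NP-D@MP vs NP-D@M (left) and NP@M vs PBS (right). No gene passed an adjusted p under 0.05, and the widest changes are 0.34 on the left and 0.39 on the right.

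Other genes of the lysosome were read from 4 lists, and the genes named from them were picked after their values were seen. The counts that follow are for NP-D@M vs NP@M, where of all tested genes 41.8% rose and 47.7% fell in FPKM, and 17.5% rose and 70.5% fell by reads. Of 32 further hydrolases and cofactors 22 had a row and were tested, of which 17 rose and 3 fell (by reads, 8 rose and 10 fell). Fuca1, alpha-L-fucosidase, averaged 71.2 ± 2.93 FPKM with NP-D@MP and 65.0 ± 7.36 FPKM with NP-D@M, against 3.55 ± 0.322 FPKM with NP@M and 4.74 ± 1.61 FPKM with PBS. The sulfatase genes Arsb and Galns had log2 changes of 3.41 and 2.96 for NP-D@M vs NP@M, and Sumf1, which activates sulfatases, had 2.91; these 3 also rose scaled to the reads. Pla2g15, a lysosomal phospholipase, had a change of -1.22. With D it reached 1 FPKM only in N8 and N12, so it passed the filter on low values through libraries without D. Of 16 further membrane proteins 12 were tested, of which 7 rose and 3 fell (by reads, 3 and 9). Laptm4a, a small transmembrane protein, averaged 610.4 ± 38.9 FPKM with NP-D@MP and 679 ± 67.3 FPKM with NP-D@M, against 136 ± 4.75 FPKM with NP@M and 115 ± 1.66 FPKM with PBS. Its relative Laptm4b averaged 7.72 ± 0.354 FPKM with NP-D@MP and 8.56 ± 2.26 FPKM with NP-D@M, against 30.1 ± 4.22 FPKM with NP@M and 28.3 ± 1.37 FPKM with PBS.

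Genes that sort hydrolases to the lysosome and genes of nutrient sensing on its surface fell more often than they rose, as did all tested genes (41.8% rose and 47.7% fell in FPKM). Of 14 sorting genes 11 were tested, of which 4 rose and 7 fell for NP-D@M vs NP@M (by reads, 3 and 8). The enzyme that marks hydrolases with mannose 6-phosphate is built from the products of Gnptab and Gnptg, and Gnptg had a log2 change of 3.32 while Gnptab had one of -1.61. M6pr, the cation-dependent mannose 6-phosphate receptor, had a change of -0.28 in FPKM and of -2.00 scaled to the reads. Of 19 genes of TFEB, mTORC1 and lysosomal nutrient sensing 16 were tested, of which 6 rose and 9 fell (by reads, 3 and 12). Of the Ragulator genes, whose products anchor mTORC1 signalling to the lysosome, Lamtor1, Lamtor2, Lamtor4 and Lamtor5 rose by log2 changes of 1.90, 3.35, 2.72 and 2.27 in FPKM, and Lamtor3 fell by 1.85; scaled to the reads Lamtor1, at 0.14, did not pass. Tfeb itself averaged 0.215 ± 0.0258 FPKM with NP-D@MP and 0.136 ± 0.119 FPKM with NP-D@M, against 1.06 ± 0.141 FPKM with NP@M and 1.14 ± 0.183 FPKM with PBS. Its relative Tfe3 averaged 8.82 ± 0.675 FPKM with NP-D@MP and 8.53 ± 1.53 FPKM with NP-D@M, against 4.55 ± 0.535 FPKM with NP@M and 5.72 ± 0.678 FPKM with PBS. Tfe3 rose in FPKM and fell scaled to the reads (log2 change -0.81), while Tfeb was called lower under both. Tfeb reached 1 FPKM only in N1, N2, N3, N5 and N6, and so passed the filter on low values through libraries without D alone. With D it was near the floor, so its fall carries that limit.

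Holding the CLEAR core went with no one pattern of change. For NP-D@M vs NP@M in FPKM, the 7 members with the core had a median log2 change of 2.23, with Atp6v0e at 3.26 and Ctsd at 3.22 at one end and Atp6v1a at 0.56 and Cln3 at 0.19 at the other. The 12 with an E-box had a median of 2.63, and the 23 with a promoter entry and no E-box had one of 2.46. The last set includes Psap, Hexa, Cd63 and Atp6v1f. The 8 members with no promoter entry were Asah1, Atp6v0a2, Atp6v1b2, Atp6v1c1, Atp6v1g1, Atp6v1h, Ctsb and Npc1.

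Shorter genes had higher log2 changes among the members and among all genes with a coding transcript. By exonic length as the table gives it, the 17 members in the shortest of 3 equal classes of genes had a median log2 change of 2.66 for NP-D@M vs NP@M, the 15 in the middle class 2.26 and the 11 in the longest class 1.29. All genes in these classes had medians of 0.59, -0.51 and -0.64. Across the 43 members the rank correlation of log2 change was -0.32 with that length and 0.34 with the GC content of the transcript, against -0.22 and 0.20 across 8894 genes; genes share libraries and are not independent replicates. The part of length and GC content in the members' changes was not tested.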

How the data were processed

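Groups were read from the titles of the samples, whose numbers run on from N1 to N12. The labels' protocols give 1 ug of total RNA per library and an Illumina TruSeq kit; that text also speaks of retinas, although the samples are labelled as CT26 cells (of 6 retina markers 1, Sag, had a row, at 0.589 FPKM or less). The authors deposited a table of FPKM with coordinates that match GRCm38 (41 of 43 members identical in GENCODE M21), while the submitters' processing notes name Bowtie 0.12.2 and mm8; the gene counter, strand setting and source of the library size are not given in the sources used here. FPKM times length gave whole reads for all values (relative tolerance 1e-06). Depth was 12.8 to 15.7 M reads in the table. limma 3.58.1 (R 4.3.3) was run on log2(FPKM + 1), which understates changes of low genes, for genes at 1 FPKM or more in at least 3 libraries (10101, all 43 members included), with all 12 libraries in 1 fit and Benjamini-Hochberg adjustment over all of them. The fit was tested on simulated reads scaled to their own totals, which does not probe the authors' library size. Ratios are of mean FPKM, and SDs are over 3 libraries. Values per library are given for the most abundant members of each role, the largest rises and falls, and members whose direction turned with scaling. The members, lists and alternatives were chosen with earlier results of these data known. Promoter sequences are from RefSeq. The gene of the c subunit of V0 was not analysed here.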

Additional observations from a re-analysis of the deposited data

How the results depend on the processing

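Scaling decided how many members were called lower. For NP-D@M vs NP@M, where 3 were lower, there were 16 scaled to the reads in the table, 16 with limma voom on the recovered reads, 6 with quantile normalization and 1 with a log2 change of at least 1. For NP-D@MP vs PBS, where 1 was lower, these came to 14, 15 and 4, and to 3 with a common median ratio. The counts of members called higher also fell, by reads and with limma voom, from 36 to 24 for NP-D@M vs NP@M and from 37 to 25 for NP-D@MP vs PBS. They stayed within 1.5 times under each of these settings. All 8 counts did so without a filter, with a minimum mean of 5 FPKM, with a pseudocount of 0.1 and with a fit on only the 6 libraries compared.

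Log2 changes for NP-D@M vs NP@M that turned negative were, scaled to the reads in the table, Atp6ap2 -0.038, Atp6v0a1 -0.38, Atp6v0a2 -0.53, Atp6v0d1 -0.76, Atp6v1a -1.18, Atp6v1c1 -0.24, Atp6v1g1 -0.61, Atp6v1g2 -0.15, Cln3 -0.98, Grn -1.38, Lamp2 -0.43, Lipa -0.72, Neu1 -0.97, Npc1 -1.32, Scarb2 -0.63. With limma voom they were Atp6ap2 -0.040, Atp6v0a1 -0.41, Atp6v0a2 -0.58, Atp6v0d1 -0.77, Atp6v1a -1.25, Atp6v1c1 -0.25, Atp6v1g1 -0.60, Atp6v1g2 -0.66, Cln3 -1.53, Grn -1.41, Lamp2 -0.44, Lipa -0.84, Neu1 -1.35, Npc1 -1.69, Scarb2 -0.67. With quantile normalization they were Atp6ap2 -0.27, Atp6v0d1 -0.74, Atp6v1a -0.35, Atp6v1g1 -0.88, Grn -1.54, Lamp1 -0.093, Lamp2 -0.28. Log2 changes for NP-D@MP vs PBS that turned negative were, scaled to the reads in the table, Atp6v0a1 -0.39, Atp6v0a2 -0.63, Atp6v0d1 -0.71, Atp6v1a -1.11, Atp6v1c1 -0.19, Atp6v1g1 -0.50, Atp6v1g2 -0.085, Cln3 -0.75, Grn -1.26, Lamp2 -0.24, Lipa -0.64, Neu1 -0.99, Npc1 -1.34, Scarb2 -0.75. With limma voom they were Atp6v0a1 -0.42, Atp6v0a2 -0.68, Atp6v0d1 -0.72, Atp6v1a -1.17, Atp6v1c1 -0.19, Atp6v1g1 -0.51, Atp6v1g2 -0.19, Cln3 -1.14, Grn -1.28, Lamp2 -0.24, Lipa -0.72, Neu1 -1.33, Npc1 -1.71, Scarb2 -0.80. With quantile normalization they were Atp6ap2 -0.13, Atp6v0d1 -0.66, Atp6v1a -0.15, Atp6v1g1 -0.90, Grn -1.42.

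Leaving out each library in turn gave 36 to 37 higher and 3 to 3 lower for NP-D@M vs NP@M, 37 to 39 higher and 1 to 3 lower for NP-D@MP vs PBS, 0 to 3 higher and 0 to 0 lower between NP-D@MP and NP-D@M, and 0 to 0 in both directions for NP@M vs PBS. No call was lost. For NP-D@MP vs PBS, 2 members were lower without NP-D@M replicate N7, where Atp6v1d was added, and 3 without NP-D@MP replicate N10. N7 belongs to neither NP-D@MP nor PBS. Its removal left the log2 change of Atp6v1d at -0.32 and altered only the estimate of spread shared by all libraries (limma adjusted p = 0.037, against 0.0857). For N10 the cause was not tested. No paired analysis was possible because the labels number the libraries in a single series and no number is shared between groups.

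Depth limits the low members most: Atp6v1g2 stayed at or under 1.59 FPKM in every library, and its reads cover counting error only. No setting tells the authors' library size from a change in total RNA per cell.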
